A study of Mus musculus with 59 samples.

Results

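10 genes that mark classes of forebrain interneurons, 10 of the 20689 genes measured, were examined in 59 single mouse cells: the neuropeptide genes Sst, Npy, Cck and Vip, the calcium-binding protein genes Pvalb and Calb2, and Nos1, Reln, Htr3a and Chodl. They were taken by symbol from a list. The cells carry the label chemical-induced neurons and come from a study of converting astrocytes into neurons in the living mouse brain. All carry an age label of 12 weeks, and the content of each was drawn into a patch pipette in vivo. The labels give 1 group and name no strain, animal, brain region or agent, and no untreated neurons or astrocytes were analysed here. The 59 cells were therefore treated as 1 sample, so the values describe these cells, no test was run, and intervals (exact Clopper-Pearson, 95%) cover counting error over cells only.

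Most forebrain interneurons release GABA, which is made by the enzymes of Gad1 and Gad2 and loaded into vesicles by the transporter of Slc32a1. Sst and Pvalb mark interneuron classes that are largely separate in the mouse cortex, whereas in the striatum Sst, Npy and Nos1 typically occur in the same cells. Vip, Reln and Htr3a mark further classes, and Cck is made by some interneurons and also by many cortical projection neurons. Ppp1r1b encodes DARPP-32, a phosphatase regulator best known from the GABA-releasing projection neurons of the striatum.

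Levels are in FPKM, the fragments counted for a gene, divided by its exon length and by the cell's total of fragments. FPKM allows for differences in length and depth. Spike-in RNA (ERCC) made up 0.0940 to 37.6% of the summed FPKM of a cell (median 3.70%), and the sum over genes differed between cells. Levels are therefore only roughly comparable between cells. A gene was called detected at 1 FPKM, its level was called trace below 10 FPKM, high at 100 FPKM or more and extreme at 1000 FPKM or more. Depth, recovered from the spacing of the low values, had a median of 912996 fragments per cell (29043 to 2950402), and a median of 3984 genes was detected (475 to 10310). Of 15 general neuronal genes, 48 cells had at least 50%, and the other 11 cells had fewer. Those 11 cells had a median depth of 657853 fragments (quartiles 523697.5 and 1928457), against 1003555 (quartiles 306660.5 and 1591474) in the 48 cells. The mean, the lower quartile and the upper quartile of depth were higher in the 11 cells, with means of 1176803 and 1060792 fragments.

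The 250 bases before the transcription start were searched for the cAMP response element TGACGTCA and its core TGACG, on both strands, because Sst, Cck and Vip are textbook targets of cAMP signalling. The 100 bases next to the start are shown for these genes and also for Npy and Pvalb, 5′ to 3′ on the gene's strand, from RefSeq on GRCm38.p6. Capitals mark the element or its core (TGACG, or CGTCA on the other strand).
Sst: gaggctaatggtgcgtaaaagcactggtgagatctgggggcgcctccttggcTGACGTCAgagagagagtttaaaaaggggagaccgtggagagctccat
Cck: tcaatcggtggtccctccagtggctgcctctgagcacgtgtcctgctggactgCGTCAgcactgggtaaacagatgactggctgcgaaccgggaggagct
Vip: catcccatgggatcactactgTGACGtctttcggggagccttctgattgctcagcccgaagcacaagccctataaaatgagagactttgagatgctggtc
Npy: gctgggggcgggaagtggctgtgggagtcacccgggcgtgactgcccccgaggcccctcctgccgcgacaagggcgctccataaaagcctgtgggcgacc
Pvalb: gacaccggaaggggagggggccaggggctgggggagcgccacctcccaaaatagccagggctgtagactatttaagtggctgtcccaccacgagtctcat
They lie at chr16:23890845-23890944 (minus strand) for Sst, chr9:121495695-121495794 (minus strand) for Cck, chr10:5639118-5639217 (plus strand) for Vip, chr6:49822610-49822709 (plus strand) for Npy and chr15:78206401-78206500 (minus strand) for Pvalb. The gene span given below for Sst comes from another annotation, GENCODE M21, and reaches 23890958. The Sst window, placed by the RefSeq start, therefore lies inside that span. Sst carries the whole palindrome, 48 to 41 bases before the start, and the palindrome contains the core on both strands. Cck has a single core 47 to 43 bases before the start and Vip 1 at 79 to 75 bases, while neither letter string occurs in the windows of Npy and Pvalb. Of the 2 promoters listed for Pvalb, the window searched belongs to that nearest its annotated gene start. Among all 32851 promoters of that table, 1.55% held the palindrome and 17.8% the core. These matches describe letters in a window and not binding.

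Sst, Npy, Pvalb and Cck were each found in about as many cells as not, Calb2 in fewer, and the other genes in a small minority. At least 1 of the 10 genes was detected in 51 of 59 cells (86.4%, 75.0 to 94.0%), with a median of 3 per cell (quartiles 1 and 4.5) and a maximum of 7 in cell 37. The 8 cells without any were cells 4, 21, 27, 40, 43, 53, 60 and 62. The median share of cells with detection was 21.2% over the 10 genes and 11.9% over all genes. The number of these genes per cell followed the number of all genes detected (Spearman rho 0.51, 59 cells) more than depth (rho 0.26), and cells share both differences with every gene.

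Levels spanned from trace to extreme within the same gene. Sst and Pvalb, 2 of the 10 genes, reached 1000 FPKM in some cell, against 2.08% of all genes. 5 of the 10 were at 100 FPKM or more in at least 5 cells, against 7.02% of all genes, and 6 of the 10 reached 100 FPKM in some cell, against 26.1%. 3 of the 10 were detected in at least 50% of cells, against 11.7%. Their summed level per cell had a median of 107 FPKM and a maximum of 11007 FPKM in cell 12, where it was 3.24% of the FPKM of all genes. In no case did the 5 genes detected in at least 12 cells have 50% of their summed FPKM in 1 cell, against 4.18% of the 8042 genes detected that widely.

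**Figure D1:**
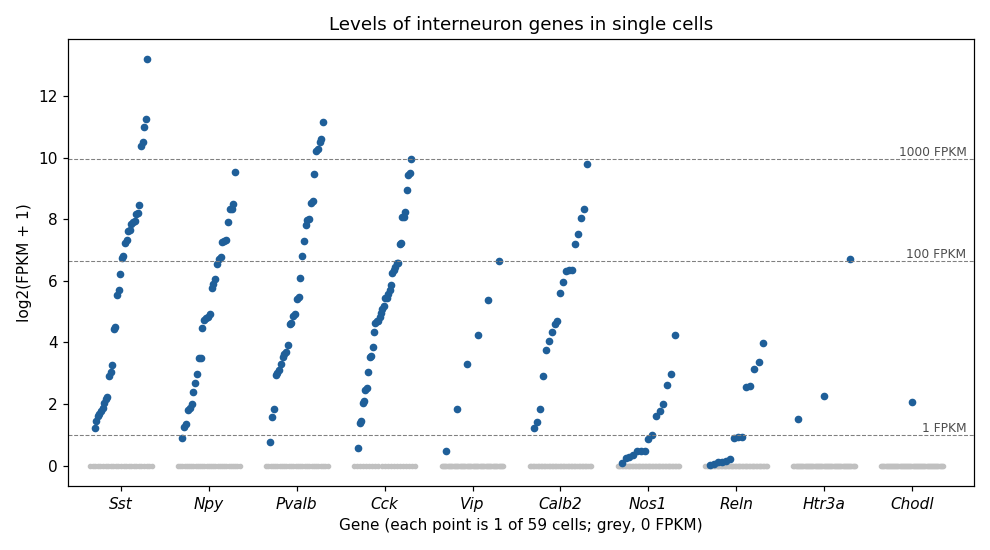
Levels of the 10 genes as log2(FPKM + 1), 1 point per cell over 59 cells, with grey points at 0 FPKM and dashed lines at 1, 100 and 1000 FPKM. Sst and Pvalb run from trace levels to above 1000 FPKM in 5 cells each, while Nos1 and Reln stay below 18 FPKM.

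Sst (chromosome 16, 23889573 to 23890958, minus strand, GRCm38), the precursor of the inhibitory peptide somatostatin, had the highest level of the 10 genes. It was listed at 0 in 25 cells and detected in 34 (57.6%, 44.1 to 70.4%), with a median of 2.45 FPKM over all cells and 90.1 FPKM where detected. Cell 12 stood far above the rest at 9392 FPKM, on 10042 recovered fragments, and Sst was the second highest gene of that cell. It held 48.2% of the Sst summed over all cells and was 3.84 times cell 7, the next, at 2449 FPKM. Cells 55, 32 and 20 followed with 2039, 1468 and 1322 FPKM. Below these 5 cells, 12 had 100 to 1000 FPKM, 5 had 10 to 100 FPKM, and 12 had trace levels. Sst thus had a wide spread with few cells at intermediate levels.

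Npy (chromosome 6, 49822710 to 49829507, plus strand), the precursor of neuropeptide Y, was detected in 29 cells (49.2%, 35.9 to 62.5%), with a median of 0.851 FPKM over all cells and 29.5 FPKM where detected. Its maximum was 748 FPKM in cell 55, on 631 fragments, followed by 356 FPKM in cell 9 and 319 FPKM in cell 11. 10 cells were at 100 FPKM or more and 8 at trace levels, so Npy covered a narrower range than Sst.

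Cck (chromosome 9, 121489824 to 121495694, minus strand), the cholecystokinin precursor, was detected in the most cells, 37 (62.7%, 49.1 to 75.0%). Its median was 10.4 FPKM over all cells and 42.3 FPKM where detected, and 21 cells lay between 10 and 100 FPKM. The top cells were 11, 25 and 14, at 988, 729 and 690 FPKM, and 9 cells in all had 100 FPKM or more. No single cell dominated, with 19.8% of the summed Cck in cell 11.

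Vip (chromosome 10, 5639218 to 5647617, plus strand), the precursor of vasoactive intestinal peptide, was detected in 5 cells (8.47%, 2.81 to 18.7%). Its values were 97.9 FPKM in cell 23, 40.3 in cell 33, 17.7 in cell 26, 8.84 in cell 37 and 2.56 in cell 59. The value in cell 59 rests on 1 fragment, against 184 fragments in cell 23.

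Pvalb (chromosome 15, 78191114 to 78206400, minus strand), the calcium buffer parvalbumin of fast-spiking interneurons, was detected in 30 cells (50.8%, 37.5 to 64.1%), with a median of 1.99 FPKM over all cells and 42.6 FPKM where detected. 5 cells were extreme, with 2289 FPKM in cell 7, 1556 in cell 12, 1453 in cell 9, 1252 in cell 8 and 1192 in cell 48. These lay close together, on 1908 to 3221 fragments, and cell 7 was 1.47 times the next. 8 more cells had 100 to 1000 FPKM, 11 had 10 to 100 FPKM, and 6 had trace levels.

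Calb2 (chromosome 8, 110137502 to 110168210, minus strand), the calcium-binding protein calretinin, was detected in 19 cells (32.2%, 20.6 to 45.6%) with a median of 47.4 FPKM where detected. It was highest in cell 17 at 877 FPKM on 1280 fragments, which held 39.0% of its sum. Cells 24, 20, 18 and 49 followed at 322, 265, 184 and 145 FPKM. The value in cell 20, the shallowest cell, rests on 11 fragments.

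Nos1 and Reln were found only at low FPKM, but on many fragments, since their transcripts are long. Nos1 (chromosome 5, 117781032 to 117958840, plus strand), the neuronal nitric oxide synthase, was detected in 6 cells (10.2%, 3.82 to 20.8%), at 17.9 FPKM in cell 46, 6.94 in cell 17, 5.18 in cell 9, 3.01 in cell 15, 2.44 in cell 18 and 2.05 in cell 55. Reln (chromosome 5, 21884454 to 22344702, minus strand), which encodes the secreted glycoprotein reelin, was detected in 5 cells (8.47%, 2.81 to 18.7%), at 14.8 FPKM in cell 32, 9.33 in cell 58, 7.69 in cell 11, 4.96 in cell 16 and 4.87 in cell 47. Another 9 cells for each gene lay above 0 and below 1 FPKM. With at least 3 recovered fragments as the criterion, Nos1 was present in 12 cells and Reln in 10.

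Htr3a (chromosome 9, 48899213 to 48911099, minus strand), a subunit of the serotonin-gated ion channel, was detected in 3 cells: 103 FPKM on 270 fragments in cell 61, 3.82 FPKM in cell 37 and 1.88 FPKM in cell 17. Chodl (chromosome 16, 78930948 to 78951733, plus strand), a membrane protein known from long-range cortical neurons with Sst and Nos1, was detected in 1 cell, cell 42, at 3.17 FPKM on about 7 fragments. Both were listed at 0 in all other cells. Cell 61 held 94.8% of the summed Htr3a.

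The same FPKM rested on very different evidence from gene to gene and cell to cell. At the median depth, 1 fragment was worth 1.83 FPKM for Sst, 1.94 for Npy, 1.60 for Cck and 1.05 for Pvalb, against 0.0982 for Nos1 and 0.0461 for Reln. A trace level of the short genes was therefore often 1 or a few fragments: 7 of the 37 Cck detections, 6 of the 29 Npy detections, 3 of the 34 Sst detections and 3 of the 30 Pvalb detections rest on 1 fragment. A single fragment gave up to 25.1 FPKM for Cck. High levels were mostly deep, but Sst at 201 FPKM in cell 2 was 7 fragments, Sst at 107 FPKM in cell 5 was 8, and Npy at 152 FPKM in cell 28 was 8. The extreme Sst level of cell 20 rests on 23 fragments, at a depth of 29043, and the other extreme levels on 425 to 10042.

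**Figure D2:**
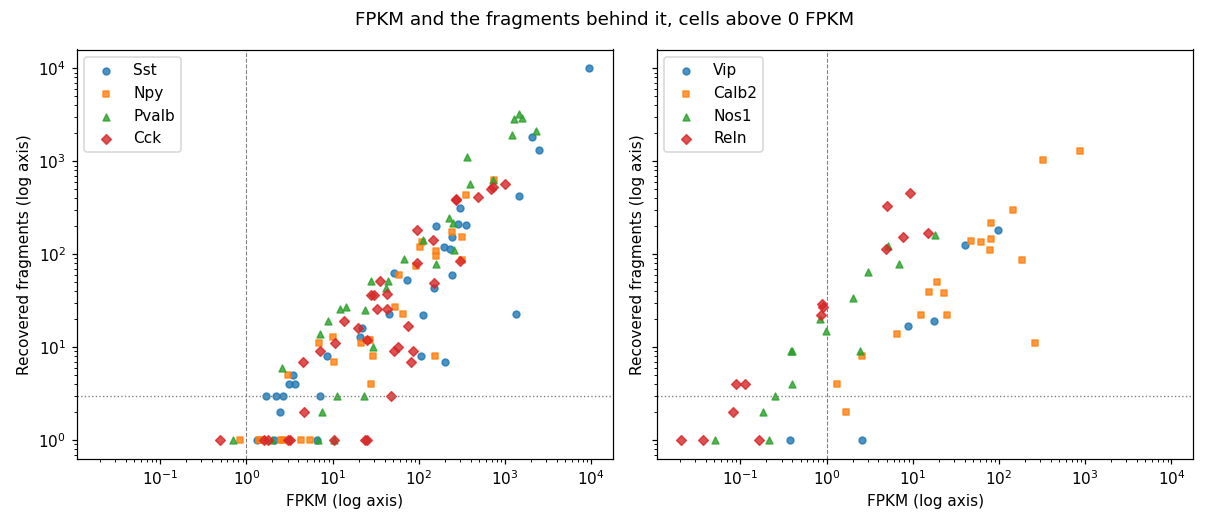
Recovered fragments against FPKM on log axes for cells above 0 FPKM, with Sst, Npy, Pvalb and Cck at left and Vip, Calb2, Nos1 and Reln at right, a dashed line at 1 FPKM and a dotted line at 3 fragments. Nos1 and Reln lie higher for their FPKM than the shorter genes, and Sst at 1322 FPKM on 23 fragments lies far below the other extreme levels.

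The genes were often detected together in a cell. All 4 of Sst, Npy, Pvalb and Cck were detected in 14 cells (23.7%, 13.6 to 36.6%). Sst was found with Npy in 20 cells (33.9%, 22.1 to 47.4%), which is 58.8% of the Sst cells and 69.0% of the Npy cells. It was found with Pvalb in 24 cells, 70.6% of the Sst cells and 80.0% of the Pvalb cells, and with Cck in 25 cells. Over all 59 cells, Sst was detected in 57.6%, Npy in 49.2%, Pvalb in 50.8%, Cck in 62.7% and Calb2 in 32.2%. Frequent genes meet often for that reason alone, and whether the joint counts exceed this was not tested. Cck was found with Npy in 24 cells and with Pvalb in 23, and Calb2 with Sst in 16 and with Pvalb in 16. At 1 FPKM, the 5 Vip cells all had Sst, Npy and Cck, and the 6 Nos1 cells all had Sst, but several of these detections rest on 1 fragment. With at least 3 fragments for each gene, 3 of 4 Vip cells had Sst, Npy and Cck, and 8 of 12 Nos1 cells had Sst.

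High levels of different genes also met in the same cell. At 100 FPKM or more for both genes, Sst and Pvalb coincided in 7 cells (7, 9, 10, 12, 14, 39 and 42), Sst and Npy in 5 (9, 14, 32, 37 and 55), Npy and Cck in 6, Pvalb and Cck in 6, Npy and Pvalb in 5 and Sst and Cck in 4. At least 1 of the 10 genes was high in 28 cells, at least 2 in 18 and at least 3 in 7. Relative levels were far from constant where both were detected: the ratio of Sst to Npy ran from 0.0282 to 159 with a median of 1.34, and that of Sst to Pvalb from 0.00246 to 739 with a median of 0.953. The rank correlation over 59 cells was 0.53 for Sst with Pvalb and 0.33 for Sst with Npy, values that include the shared differences in genes detected.

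**Figure D3:**
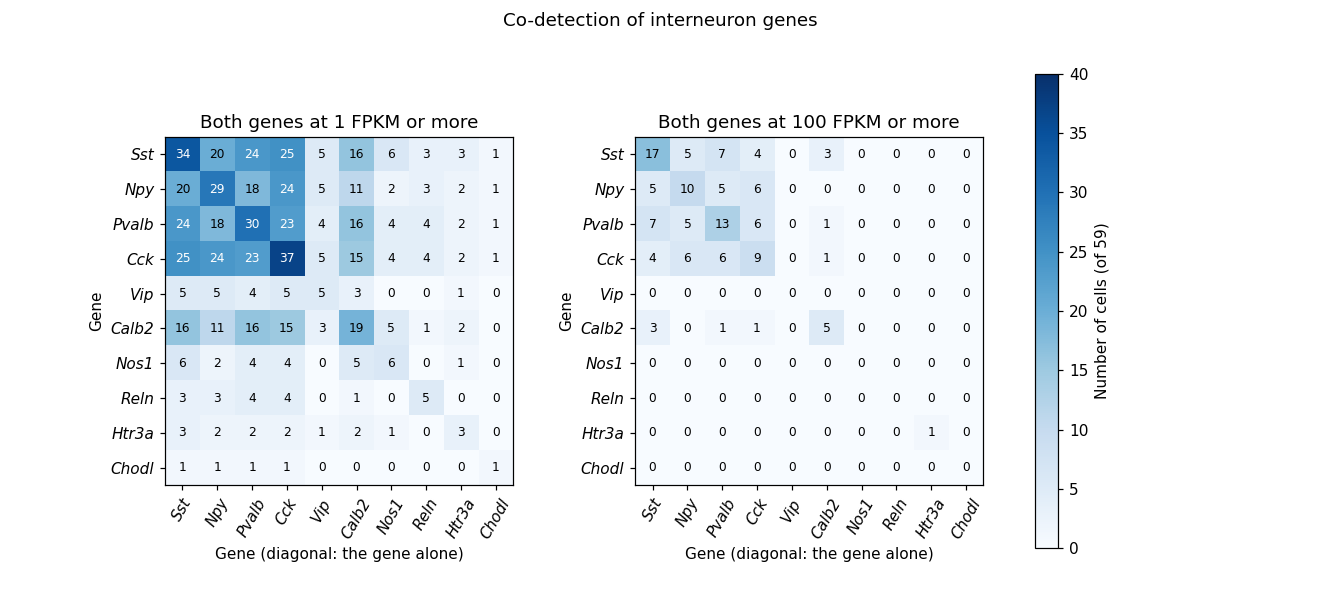
Number of the 59 cells in which both genes of a pair reach 1 FPKM (left) or 100 FPKM (right), with the count for the gene alone on the diagonal. Sst, Npy, Pvalb and Cck share 18 to 25 cells in each pair at 1 FPKM and 4 to 7 cells at 100 FPKM.

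The Sst, Npy and Nos1 combination was rare at these thresholds. Npy and Nos1 were detected together in cells 9 and 55, both with Sst, and no cell had Sst, Npy, Nos1 and Chodl together (0 of 59 cells, an upper limit of 6.06%). In cell 55, Sst was 2039 FPKM, Npy 748 FPKM and Nos1 2.05 FPKM. In cell 9, Sst was 158 FPKM, Npy 356 FPKM and Nos1 5.18 FPKM, but Pvalb was 1453 FPKM and Cck 267 FPKM. With at least 3 fragments for each gene, 4 cells had Sst, Npy and Nos1 (cells 8, 9, 33 and 55). Cell 46, with the most Nos1, had 2.07 FPKM of Sst and 0 FPKM of Npy.

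An extreme level of Sst or Pvalb was found in 8 cells (13.6%, 6.04 to 25.0%). With each cell rescaled to a sum of 1000000 over its genes, 22.0% of cells had at least 1 of the 10 genes at 1000 or more. The genes of these cells sum to less than 1000000 FPKM, so rescaling raised their levels and made 1000 a lower bar. At 500 FPKM without rescaling, the share was 20.3%. Cells 7 and 12 were extreme for both genes. Cells 8, 9 and 48 were extreme for Pvalb alone, with 3.08, 158 and 8.69 FPKM of Sst. Cells 20, 32 and 55 were extreme for Sst alone, with 0, 1.99 and 0 FPKM of Pvalb. The partner peptides varied too, since Npy was 748 and 318 FPKM in cells 55 and 32 but 58.9 FPKM in cell 12, the cell with the most Sst. Cell 20 had Calb2 at 265 FPKM, and none of Npy, Pvalb and Cck above 0 FPKM. It was the shallowest cell, at 29043 fragments, so its values of 0 are weak evidence of absence.

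The general neuronal gene Snap25 ran from 61.2 FPKM (cell 55) to 1073 FPKM (cell 48) in these 8 cells, and all had at least 10 of the 15 general neuronal genes. Other peptide genes varied there. Penk (enkephalin precursor) reached at most 35.1 FPKM, Pdyn (dynorphin precursor) 3.84 FPKM and Tac1 (substance P precursor) 32.6 FPKM, while Trh (thyrotropin-releasing hormone) was 215 FPKM in cell 8, Pomc (the opioid and melanocortin precursor) 131 FPKM in cell 32 and Cartpt (the CART peptide precursor) 110 FPKM in cell 48. Markers of glia were present as well. The summed level of 10 oligodendrocyte genes was 86.9 to 13286 FPKM in the 8 cells, against 14.6 to 29150 FPKM over all 59, that of 12 microglia genes 0 to 1121 FPKM against 0 to 38260 FPKM, and that of 14 astrocyte genes 398 to 2722 FPKM against 38.7 to 16258 FPKM. The myelin gene Mbp was 0 FPKM in cell 20, 39.5 FPKM in cell 12 and up to 2285 FPKM in cell 7. The complement gene C1qb was 0 FPKM in cells 12 and 20 and at most 129 FPKM (cell 55), and the astrocyte water channel gene Aqp4 was 0 FPKM in cells 9, 12, 20, 32 and 48 and at most 54.0 FPKM (cell 7).

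Glial transcripts were high in some cells with high Pvalb or Sst. Cell 10, with 229 FPKM of Sst and 252 FPKM of Pvalb, had 14711 FPKM of Mbp and 523 FPKM of C1qb. Cell 49, with 388 FPKM of Pvalb, had 5107 FPKM of C1qb. Cell 21, with none of the 10 genes detected, had 8628 FPKM of C1qb. The part of these transcripts in the results was not tested.

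In the 11 cells with fewer than 50% of the general neuronal genes, few interneuron genes were found. These cells also had fewer genes of any kind, a median of 2174 against 4348 in the other 48 cells, and the part of this in the counts was not tested. Sst was detected in 0 of them, Npy in 3 (cells 34, 36 and 45), Cck in 2 (45 and 57), Pvalb in 1 (41) and Calb2 in 1 (45), and none of the 10 genes reached 100 FPKM. All 34 Sst cells were among the other 48 cells.

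Gad1 was detected in 46 cells (78.0%, 65.3 to 87.7%), and most cells with an interneuron gene had it. At least 1 of Sst, Npy and Pvalb was detected in 47 cells, and in 41 of these Gad1 was too (69.5% of all cells, 56.1 to 80.8%). Gad1 was present in 29 of the 30 Pvalb cells, 18 of the 19 Calb2 cells, 31 of the 34 Sst cells, 34 of the 37 Cck cells, 26 of the 29 Npy cells, 4 of the 5 Vip cells and all cells with Nos1, Reln, Htr3a or Chodl. At least 1 of Gad1, Gad2 and Slc32a1 was detected in 50 of all 59 cells. Every cell with Sst, Pvalb, Calb2, Vip, Nos1, Reln, Htr3a or Chodl had at least 1 of the 3, as had 36 of the 37 Cck cells and 27 of the 29 Npy cells. For Pvalb this includes cell 41, with 1 fragment of Pvalb and 2 of Slc32a1.

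Of the 5 genes detected in at least 12 cells, Pvalb had the highest rank correlation with Gad1. Gad1 was at 100 FPKM or more in 10 cells, and 7 of these had Pvalb at 100 FPKM or more: 2289 FPKM in cell 7, 1556 in cell 12, 1453 in cell 9, 1252 in cell 8, 1192 in cell 48, 714 in cell 11 and 364 in cell 13. The other 3 had 23.0 FPKM (cell 5) and 0 FPKM (cells 46 and 61). The 5 cells with extreme Pvalb had 150 to 929 FPKM of Gad1. Over 59 cells the rank correlation with Gad1 was 0.59 for Pvalb, 0.42 for Sst, 0.30 for Npy, 0.25 for Cck and 0.20 for Calb2. Given the number of genes detected, it was 0.49 for Pvalb and 0.37 for Sst, and 0.17, 0.16 and 0.03 for Npy, Cck and Calb2. A rank correlation of at least 0.5 with Gad1 was reached by 1 of the 5 genes detected in at least 12 cells, against 6.02% of all genes detected that widely.

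Extreme Sst did not go with one level of Gad1. Cells 12 and 7 had 929 and 924 FPKM of Gad1, cells 55 and 32 had 11.7 and 11.6 FPKM, and cell 20 had 0 FPKM of Gad1 and 70.3 FPKM of Gad2. Cells 55 and 32 lay near the Gad1 median over all cells, 11.7 FPKM, and cell 20 was the shallowest cell. Glutamate transporter genes were also found with these genes. At least 1 of the vesicular glutamate transporter genes Slc17a7, Slc17a6 and Slc17a8 was detected in 20 of the 34 Sst cells (58.8%), 18 of the 30 Pvalb cells (60.0%), 16 of the 29 Npy cells (55.2%) and 19 of the 37 Cck cells (51.4%), against 26 of all 59 cells (44.1%). Slc17a7 was detected in all 5 Vip cells, against 20 of all 59 cells (33.9%). In cell 59 this rests on 1 fragment of Vip and 3 of Slc17a7. Cell 32, with 1468 FPKM of Sst and 318 FPKM of Npy, had the most Slc17a7 of all cells, 147 FPKM, beside 11.6 FPKM of Gad1.

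**Figure D4:**
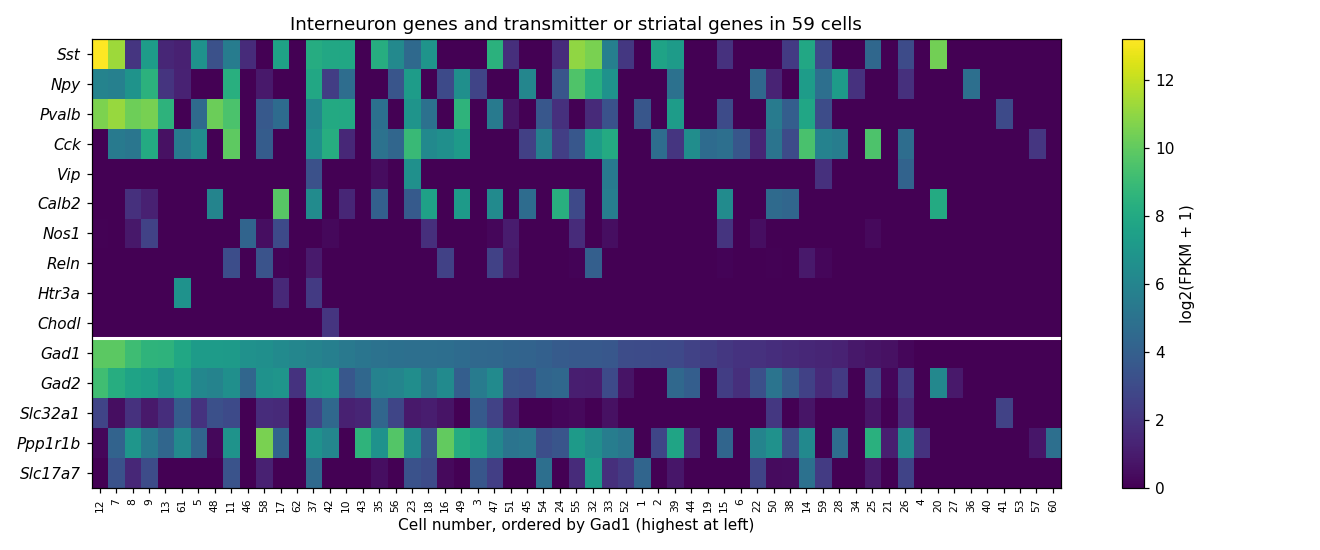
Level, log2(FPKM + 1), of the 10 interneuron genes (above the white line) and of Gad1, Gad2, Slc32a1, Ppp1r1b and Slc17a7 (below it) in each of the 59 cells, ordered by Gad1 from the highest at left. Extreme Pvalb lies among the cells with the most Gad1. Extreme Sst is spread along the order, from 929 FPKM of Gad1 in cell 12, through 11.7 and 11.6 FPKM in cells 55 and 32. It reaches 0 FPKM of Gad1 in cell 20, the shallowest cell.

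Ppp1r1b was detected in 42 cells (71.2%, 57.9 to 82.2%), at 100 FPKM or more in 14, often beside an interneuron gene. At least 1 of Sst, Npy and Pvalb was detected with Ppp1r1b in 37 cells (62.7%, 49.1 to 75.0%), and with both Ppp1r1b and Gad1 in 35. Ppp1r1b was present in 28 of the 34 Sst cells, 24 of the 29 Npy cells, 24 of the 30 Pvalb cells, 32 of the 37 Cck cells and 16 of the 19 Calb2 cells. Co-detection extended to high levels, with Ppp1r1b and Sst both at 100 FPKM or more in cells 35, 37, 39 and 55, Ppp1r1b and Npy in cells 8, 11, 37 and 55, Ppp1r1b and Pvalb in cells 8, 11, 39 and 49 and Ppp1r1b and Cck in cells 11, 25 and 49.

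None of the cells extreme for Ppp1r1b was among the 8 cells extreme for Sst or Pvalb, which are 13.6% of all 59 cells. With 2 cells extreme for Ppp1r1b, this lack of overlap says little about how the genes relate. The 2 cells with 1000 FPKM or more of Ppp1r1b were cell 58, at 1475 FPKM, and cell 16, at 1035 FPKM. Both had 0 FPKM of Sst, as had 25 of the 59 cells. Cell 58 had 12.0 FPKM of Pvalb and 0.851 FPKM of Npy, and cell 16 had 0 FPKM of Pvalb and 6.92 FPKM of Npy. In the 8 cells extreme for Sst or Pvalb, Ppp1r1b was 145 FPKM in cell 55, 122 in cell 8, 90.4 in cell 32, 41.7 in cell 9, 17.1 in cell 7, 0.222 in cell 48, 0.191 in cell 12 and 0 in cell 20. The 2 highest Sst cells thus differed in Ppp1r1b, as did the 5 extreme Pvalb cells.

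The rank correlation with Ppp1r1b over 59 cells was 0.49 for Cck, 0.46 for Npy, 0.23 for Sst, 0.21 for Pvalb and 0.13 for Calb2, so that Npy and Cck had higher values with Ppp1r1b than with Gad1, and Sst and Pvalb lower ones. None of the 5 genes reached 0.5, against 2.52% of all genes detected that widely. Given the number of genes detected, the values were 0.44 for Cck, 0.36 for Npy, 0.16 for Sst, 0.04 for Pvalb and -0.04 for Calb2. Whether these correlations differ from each other was not tested. Of the 14 cells with high Ppp1r1b, 2 (cells 8 and 11) had high Gad1, against 10 of all 59 cells (16.9%). The 2 genes had a rank correlation of 0.35.

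**Figure D5:**
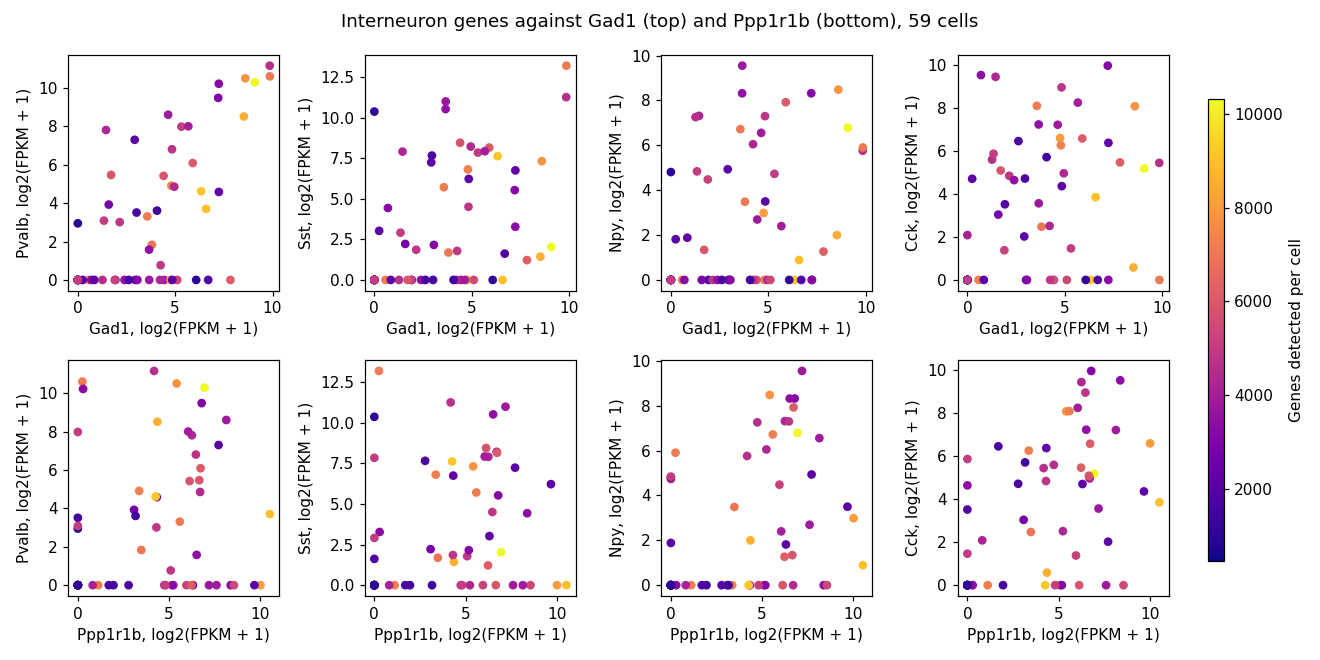
Pvalb, Sst, Npy and Cck against Gad1 (top) and Ppp1r1b (bottom), each as log2(FPKM + 1), 1 point per cell over 59 cells, coloured by the number of genes detected (475 to 10310). The highest Pvalb points lie at the right end of Gad1 and are scattered along Ppp1r1b, and the 2 cells with the most Ppp1r1b have 0 FPKM of Sst.

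The genes that handle peptides were widely detected, and the receptors of these peptides were not. Of 11 genes for peptide processing and storage, 7 reached 50% of cells or more, at a median of 55.9% per gene against 11.9% over all genes. Pcsk1n, an inhibitor of a peptide-cleaving protease, was detected in 53 cells and Cpe, the carboxypeptidase that trims peptide precursors, in 52, whereas the protease gene Pcsk1 was detected in 2 and its relative Pcsk2 in 33. Of 15 receptor and target genes, including those for somatostatin, neuropeptide Y, cholecystokinin, vasoactive intestinal peptide, reelin and nitric oxide, 1 reached 50% of cells or more, at a median of 6.78% per gene. That gene was Gucy1b3, a subunit of the guanylyl cyclase that senses nitric oxide, in 31 cells, and the lowest count included the peptide receptor gene Vipr1, in 1 cell.

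Of 15 other neuropeptide genes, Penk was detected in 36 cells and was the only 1 found in at least 50%, and Crh (corticotropin-releasing hormone) was found in 1 cell. The list median was 8.47% of cells, against 21.2% for the 10 interneuron genes. 11 other calcium-binding protein genes had a median of 45.8%, from Necab1 in 19 cells to Hpca (hippocalcin) in 50. The 17 transcription factor and related genes that specify or mark interneurons had a median of 15.3%, with none detected in at least 50% of cells, from Nkx2-1 in 2 cells to Prox1 in 21. Lhx6, which specifies Sst and Pvalb interneurons, was detected in 6 cells (9, 13, 17, 23, 46 and 61), of which cell 9 alone was extreme for Sst or Pvalb. Of 13 further interneuron markers, Calb1 (calbindin) was detected in 30 cells and Pthlh in 1.

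The genes whose levels over the 59 cells were most like each interneuron gene were found by rank correlation among 8019 genes detected in at least 12 cells, with mitochondrial genes and the gene itself left out. For Sst they were Elavl4 (a neuronal RNA-binding protein; rho 0.66), Sphkap (0.60) and Ddah1 (0.59). For Npy they were Dnajc18 (0.72), Grin2a (an NMDA receptor subunit; 0.59) and Actr3b (0.59). For Pvalb they were Zfp260 (0.72), Sept6 (0.69) and Nefl (neurofilament light chain; 0.68). For Cck they were the transcription factor gene Mef2c (0.63), Olfm1 (0.60) and Zbtb18 (0.59), and for Calb2 the serotonin receptor gene Htr2c (0.62), Zbtb22 (0.58) and Arfgef3 (0.58). The lists shared no gene, and the values are the top of many comparisons in 59 cells that share differences in genes detected.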

How the data were processed

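Contents of 59 single cells were sequenced as RNA-seq libraries. The authors deposited 1 table of FPKM per gene and cell, with 20740 features, of which 51 are ERCC spike-ins and were left out. The submitters' processing notes name STAR 2.5.3a, featureCounts 1.5.3 and the build GRCm38, with no roles. Not given in the sources used here are the annotation release, strandedness and the handling of reads that map to several places. Reads of overlapping or antisense genes could therefore not be told apart.

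Depth was estimated from the FPKM multiplied by exon length from GENCODE M21 (93.6% of genes), which steps in multiples of 1 fragment. A median of 73.3% (63.9 to 79.9%) of values up to 20 fragments came out whole within 0.02 fragments, so no count model was used. For Sst, Cck, Vip, Calb2, Slc17a7 and Slc17a6 the steps fitted a shorter length than M21 gives (599, 685, 1527, 1430, 2939 and 4319 bases). That length was used for their fragments. In cells 12, 17 and 46 some values came out at fractions of a fragment, so the fragment numbers of these cells are approximate. Chodl in cell 42 came out at 7.19 fragments. No length was fitted for genes above 0 in very few cells, such as Chodl, so its fragment number is approximate too. No pair of cells had identical values. Correlations are Spearman's, over cells, with no p-value, and log2 values are log2(FPKM + 1).

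The named genes are the 10 interneuron genes, the transmitter and striatal genes set against them, the genes with the highest and lowest detection in each list, those a joint count or an extreme cell needed, and the 3 genes most like each interneuron gene detected in at least 12 cells. Pcsk2, Pomc, Cartpt and Trh were named after their values were seen. The 10 genes and the lists were chosen with earlier results of these data known. Hcrt and Htr3b were not analysed here. Alternatives were other detection thresholds (any FPKM above 0, 5 FPKM, 3 fragments), rescaling each cell to a sum of 1000000, the 46 cells with at least 2000 genes, the 39 cells with at least 500000 fragments, partial correlations, Pearson correlation and other filters on low genes. Python 3.11.15, numpy 2.4.6, pandas 2.3.3, scipy 1.17.1 and matplotlib 3.10.9 were used. The depth and likeness steps were tested on simulated data.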

Additional observations from a re-analysis of the deposited data

How the results depend on the processing

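Of 148 values computed under other settings for 27 results, 128 stayed within the interval or the yardstick of the first value (for correlations, 0.13, which is 1 over the square root of 1 less than the number of cells), 17 moved past it and 3 changed sign. At least 1 of the 10 genes was present in 74.6% of cells at 3 fragments, the share with Gad1 and at least 1 of Sst, Npy and Pvalb was 50.8% at 5 FPKM, and the share with Ppp1r1b and at least 1 of those was 76.1% in cells with at least 2000 genes. In those cells the correlation with Ppp1r1b was 0.0372 for Sst, 0.310 for Npy, 0.360 for Cck, -0.0302 for Pvalb and -0.0482 for Calb2, and in cells with at least 500000 fragments it was 0.71 for Cck. Given the number of genes detected, it was 0.0362 for Pvalb and -0.0360 for Calb2, and the correlation with Gad1 was 0.17 for Npy and 0.0318 for Calb2. Of the 15 most alike genes, 8 were shared with the list limited to genes detected in at least 24 cells and 8 with that from Pearson correlation. The cause of these shifts was not tested. Of 60 alternative detection shares for single genes, 5 moved: Sst fell to 42.4% at 5 FPKM, Nos1 was 25.4% and Reln 23.7% at any FPKM above 0, and Chodl was at 0 at 5 FPKM and in cells with at least 500000 fragments. The 1000 FPKM level was not recomputed at any FPKM above 0 or at 3 fragments. A level of 1000 was reached in 22.0% of cells after rescaling, which raised the levels and so made this a lower bar. No paired analysis was possible because there is 1 group. At the median depth 1 fragment is worth more than 1 FPKM for Sst, Npy, Cck and Pvalb, so that for them a cell of that depth cannot show a level between 0 and 1 FPKM.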

Other observations

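Cell 61, which had high Gad1 (228 FPKM), was singled out after its values were seen. Beside its Htr3a, it had the highest level of all cells for Th (tyrosine hydroxylase, the dopamine-synthesis enzyme) at 1866 FPKM, Trh (thyrotropin-releasing hormone) at 980 FPKM, Pdyn at 274 FPKM and Cort (cortistatin) at 37.6 FPKM. It was also highest for Lhx6 at 146 FPKM, Nkx2-1 at 124 FPKM, and the secretory granule genes Scg2 at 1216 FPKM, Scg5 at 461 FPKM and Chga at 376 FPKM. The next cell had 45.3 FPKM of Lhx6 (cell 46), 77.5 FPKM of Nkx2-1 (cell 13) and 1379 FPKM of Th (cell 62). For Trh it had 215 FPKM (cell 8) and for Chga 370 FPKM (cell 7). Cells 7, 8, 13 and 46 had high Gad1 too, but the next cells for Th, Pdyn, Cort, Scg2 and Scg5 did not. Cell 46 also had little Sst (2.07 FPKM) and 0 FPKM of Npy and Pvalb. Sst was 1.33 FPKM, Npy 1.40 FPKM and Pvalb 0 FPKM in cell 61. C1qb and Aqp4 were 0 FPKM there, but Mbp was 83.7 FPKM. The summed levels in cell 61 were 168 FPKM for the oligodendrocyte genes, 94.5 FPKM for the microglia genes and 274 FPKM for the astrocyte genes.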
